A study of Mus musculus with 19 samples.

Results

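The genes described are 7 that mark B lymphocytes, the antibody-forming lineage: Cd79a, Cd79b, Ms4a1, Cd22, Blk, Pax5 and Cr2. They were taken by symbol from count tables of 24348 genes, and all 7 were found and passed the filter on low counts that left 16015 genes. The tissue was whole perigonadal fat of C57BL/6 mice, in 19 libraries of poly-A RNA. Mice on Ensure, a commercial nutrition drink, gave 5 libraries after 24 hours without feeding (Ensure fasted) and 6 at peak weight (Ensure fed). Mice on a high-fat diet labelled 60% (HFD) gave 4 libraries after 24 hours without feeding (HFD fasted) and 4 at peak weight (HFD fed). Ensure and HFD stand here for whole models of weight gain, and age is not given in the sources used here.

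A B cell reads antigen through a surface immunoglobulin that signals through the paired chains CD79A and CD79B. Coreceptors raise or lower that signal: CR2, the complement receptor, raises it, and the sialic acid-binding receptor CD22 lowers it. BLK is a Src-family kinase at the receptor, MS4A1 is the membrane protein CD20, and PAX5 is the transcription factor that keeps cells in the B lineage. In obese mouse fat, B cells are known to gather in lymphoid clusters and among the stromal cells. In bulk tissue, fewer B cells and less RNA of a gene per cell cannot be told apart.

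No gene of the 7 passed the test for fasting with either diet, and 1 passed between the diets: Cd22, which was lower in Ensure fasted than in HFD fasted fat. Among the other 6 genes, 11 of 15 pairs were correlated over the libraries. Of the 6 pairs with Cd22 none passed by Pearson's r and 1, with Blk, passed by rank. Cd22 was correlated with 3 of 15 macrophage and dendritic cell markers by both measures, Cd68, Trem2 and Itgax, and with 3 more by Pearson's r alone, of which Cd163 ran the other way. These relations were chosen after the values were seen, so their p-values are no independent support. Within the Ensure libraries the relations with Cd68 and Trem2 rested on Ensure fasted 8. The label of B cell genes was checked against the genes whose pattern was most like theirs over the 19 libraries, after group means were subtracted. These included the B lineage factors Pou2af1 and Spib and the survival receptor Tnfrsf13c. For Cd22 alone, the 10 genes most alike held none of these.

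Libraries held 12.82 to 22.55 M counts in genes (median 20.23 M). Levels are counts per M counts scaled by TMM, a correction for library composition, and are called CPM here. The floor of 3 counts corresponds to 0.124 to 0.21 CPM, for counting error only. The 7 genes together came to 9.51 to 49.2 CPM in a library. Counts per library were 12 to 173 for Cd79a, 32 to 218 for Cd79b, 5 to 174 for Ms4a1, 40 to 518 for Cd22, 4 to 84 for Blk, 1 to 36 for Pax5 and 7 to 68 for Cr2. Pax5 was at or under 3 counts in 4 libraries, so its values carry the most counting error. HFD fasted 28 and Ensure fasted 8 stood apart in the ratio of Cd22 to the other genes, and 5 libraries carried many reads of reproductive tract genes (Ensure fasted 2 and 5, Ensure fed 10 and 12, HFD fasted 24). Results that rest on these are given with and without them.

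Promoters are shown for Cd79a and Cd22, since these genes differed in pattern although both are on chromosome 7 and belong to the same lineage. RefSeq sequences of build GRCm38.p6 were at hand for 4 of the 7 genes (Cd79a, Cd22, Pax5 and Cr2). Each run is the 250 bases before the gene's start, 5′ to 3′ on the gene's strand. Capitals mark matches to the motifs searched. The first region is chr7:24897247-24897496 on the plus strand and the second chr7:30879029-30879278 on the minus strand.
Cd79a: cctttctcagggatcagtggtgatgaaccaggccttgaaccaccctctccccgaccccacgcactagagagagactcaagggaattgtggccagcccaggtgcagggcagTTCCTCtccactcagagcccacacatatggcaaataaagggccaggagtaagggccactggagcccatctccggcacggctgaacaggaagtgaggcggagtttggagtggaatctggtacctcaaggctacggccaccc
Cd22: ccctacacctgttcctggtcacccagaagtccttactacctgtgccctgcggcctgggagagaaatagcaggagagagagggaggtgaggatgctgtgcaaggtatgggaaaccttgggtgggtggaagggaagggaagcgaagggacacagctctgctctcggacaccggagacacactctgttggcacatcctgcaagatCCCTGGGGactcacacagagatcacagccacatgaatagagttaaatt

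Both strands were searched for 3 motifs of B cell regulators: the octamer ATGCAAAT, the EBF core CCCNNGGG and the PU box GAGGAA. Cd79a held a PU box on the reverse strand, TTCCTC, 140 to 135 bases before the start. Cd22 held an EBF core, CCCTGGGG, 48 to 41 bases before the start. Of 32851 mouse promoters of this length, 1.6% held the octamer, 11.8% the EBF core and 23.3% the PU box. No match lay in these windows of Pax5 and Cr2. A match is a string of letters, not a measured site.

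The receptor's signalling chains were measured first. Cd79a was at 2.8, 2.05, 1.32, 0.791 and 3.65 CPM in Ensure fasted 2, 5, 7, 8 and 17, and at 1.14 to 3.72 CPM in Ensure fed fat (median 1.64). In HFD fasted 23, 24, 26 and 28 it was at 5.07, 7.52, 3.8 and 0.877 CPM, and in HFD fed 21, 22, 25 and 27 at 1.82, 1.58, 1.47 and 3.86 CPM. HFD fasted fat thus held both the highest and, but for Ensure fasted 8, the lowest library, and all groups overlapped. Cd79b was at 3.15, 3.8, 3.61, 3.1 and 5.78 CPM in the Ensure fasted libraries in the same order, and at 1.88 to 6.31 CPM in Ensure fed fat (median 3.38). It was at 6.75, 9.47, 5.08 and 2.63 CPM in the HFD fasted libraries, and at 4.35, 2.47, 4.42 and 7.02 CPM in the HFD fed ones. The same library, HFD fasted 24, led both chains, and HFD fasted 28 was the lowest of its group in both.

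Ms4a1, a surface gene of mature B cells, was at 1.05, 1.45, 1.2, 0.593 and 3.2 CPM in Ensure fasted fat, and at 0.845 to 4.7 CPM in Ensure fed fat (median 1.91). In HFD fasted fat it was at 6.39, 7.56, 4.44 and 0.274 CPM, and in HFD fed fat at 1.57, 1.1, 2.49 and 5.02 CPM. Again HFD fasted 28 was far below the other libraries of its group. Cr2 was lower in level, at 0.49, 0.7, 0.843, 0.922 and 1.67 CPM in Ensure fasted fat, and at 0.616 to 1.03 CPM in Ensure fed fat (median 0.83). It was at 1.22, 2.96, 1.11 and 0.493 CPM in HFD fasted fat, and at 0.497, 0.525, 0.812 and 1.39 CPM in HFD fed fat. HFD fasted 24 was the highest library for Cr2 as for both receptor chains.

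Cd22 was at 2.8, 3.45, 3.91, 11.7 and 4.82 CPM in Ensure fasted 2, 5, 7, 8 and 17, and at 3.03 to 4.62 CPM in Ensure fed fat (median 3.58). It was at 26.3, 12.1, 9.52 and 26.5 CPM in HFD fasted 23, 24, 26 and 28, and at 10.4, 4.1, 11.4 and 11.2 CPM in HFD fed 21, 22, 25 and 27. Without Ensure fasted 8 and HFD fed 22, each HFD library was above each Ensure library. Its order differed from that of the other genes, since HFD fasted 28, the lowest of its group for Cd79a, Cd79b, Ms4a1, Blk, Pax5 and Cr2, was the highest for Cd22.

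Blk was at 1.12, 1.25, 0.482, 0.264 and 1.83 CPM in Ensure fasted fat, and at 0.667 to 1.45 CPM in Ensure fed fat (median 0.929). It was at 2.94, 3.65, 2.61 and 1.75 CPM in HFD fasted fat, and at 2.69, 1.89, 1.17 and 3.3 CPM in HFD fed fat. The diets overlapped through Ensure fasted 17 and HFD fasted 28 among fasted libraries, and through HFD fed 25 among fed ones. Pax5 was the lowest of the 7, at 0.91, 0.3, 0.12, 0.0659 and 0.254 CPM in Ensure fasted fat, and at 0.0494 to 0.62 CPM in Ensure fed fat (median 0.278). It was at 0.507, 1.56, 0.513 and 0.383 CPM in HFD fasted fat, and at 0.124, 0.473, 0.355 and 0.418 CPM in HFD fed fat.

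**Figure D1:**
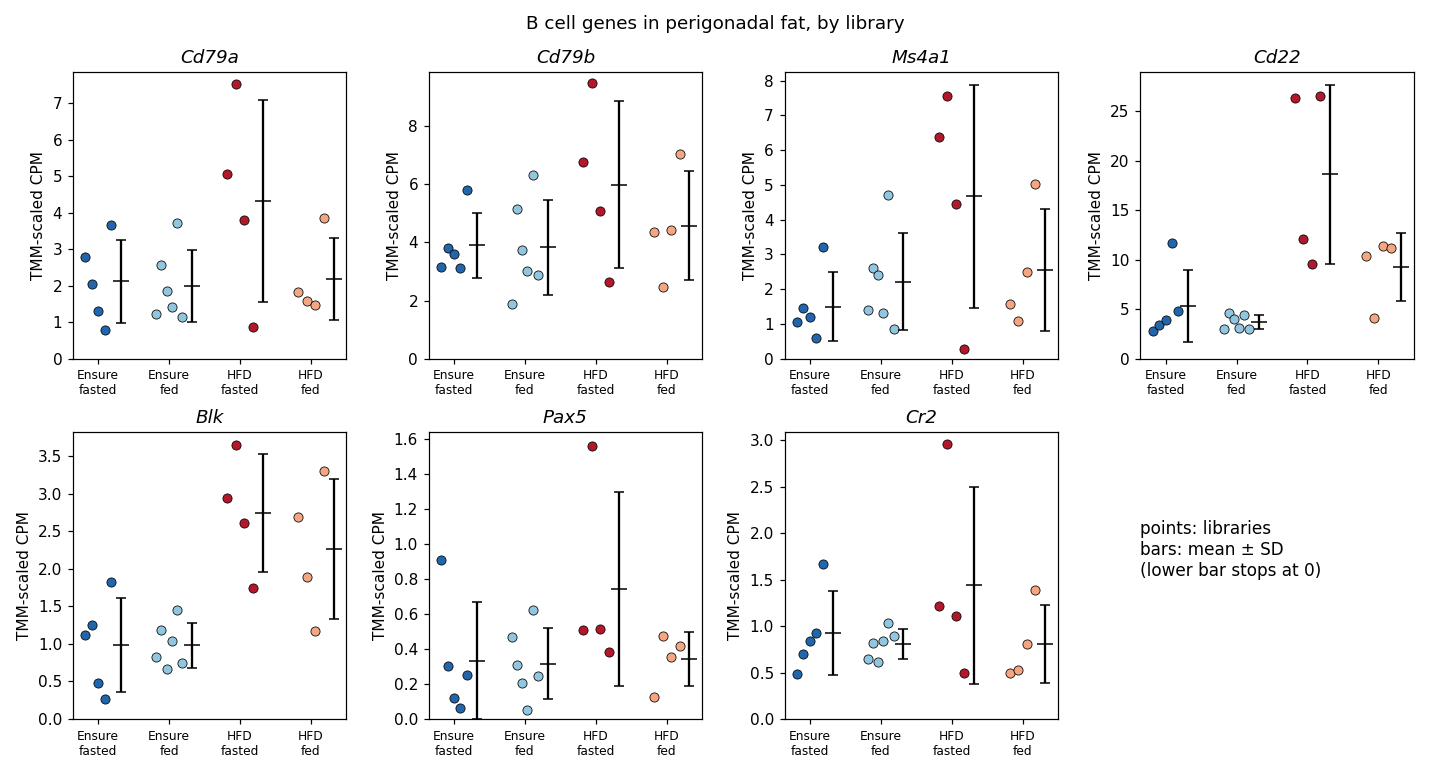
TMM-scaled CPM of each B cell gene (y axes, linear, from 0) in the 4 groups (x axes). Points are libraries and bars are the mean ± SD; HFD fasted fat has the widest spread for 6 of the 7 genes, and Cd22 is at 9.52 CPM or more in each HFD fasted library.

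Group means followed a common order only at the top, where HFD fasted fat was the highest group for each of the 7 genes. Means of Cd22 were 5.33 ± 3.62 CPM in Ensure fasted, 3.72 ± 0.739 in Ensure fed, 18.6 ± 9.05 in HFD fasted and 9.26 ± 3.47 CPM in HFD fed fat (SD, n = 5, 6, 4 and 4). Blk averaged 0.988 ± 0.626 CPM in Ensure fasted, 0.983 ± 0.297 in Ensure fed, 2.74 ± 0.788 in HFD fasted and 2.26 ± 0.931 CPM in HFD fed fat. For these genes both Ensure groups lay below both HFD groups. Cd79a averaged 2.12 ± 1.14 CPM in Ensure fasted, 1.99 ± 0.995 in Ensure fed, 4.32 ± 2.76 in HFD fasted and 2.18 ± 1.13 CPM in HFD fed fat. Here the 3 groups other than HFD fasted differed by much less than 1 SD. Ms4a1 averaged 1.5 ± 0.999 CPM in Ensure fasted, 2.22 ± 1.39 in Ensure fed, 4.67 ± 3.2 in HFD fasted and 2.55 ± 1.75 CPM in HFD fed fat. In the 4 fitted comparisons of 2 groups no gene was free of overlap, and groups next to each other in these orders were not separated. Ensure fed and HFD fasted fat, which differ in diet and fasting and were not compared by test, did not overlap for 2 genes. These were Cd22 (3.03 to 4.62 against 9.52 to 26.5 CPM) and Blk (0.667 to 1.45 against 1.75 to 3.65 CPM). The share of all genes without overlap was not counted.

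Levels of different genes were compared per kb of exon, with lengths from the GENCODE M21 annotation. Over the 19 libraries the mean was 3.11 CPM per kb for Cd79b, 1.75 for Cd79a and 1.73 for Cd22. It was 0.85 CPM per kb for Ms4a1, 0.698 for Blk, 0.132 for Cr2 and 0.0519 for Pax5. The receptor chains and Cd22 thus had the highest levels per length, and Pax5 the lowest.

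The first question was what 24 hours without feeding changed in fat of mice on Ensure. None of the 7 genes passed the test there (edgeR quasi-likelihood F test, adjusted p = 0.333 to 0.986, adjusted by Benjamini-Hochberg over all genes), and none had an unadjusted p under 0.05. Of all genes tested, 10.6% were called higher and 9.77% lower in this comparison. The median log2 fold change, Ensure fasted over Ensure fed, was 0.05 for the 7 genes and 0.11 for all genes. Cd22 had the largest, 0.52 ± 0.37 (SE; 95% interval -0.27 to 1.3), and Ms4a1 the lowest, -0.56 ± 0.64 (95% interval -1.91 to 0.79). The Cd22 value rested on Ensure fasted 8, without which it was -0.02. For each gene but Cd22 the interval allows changes of more than 1.5-fold either way.

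With HFD, all 7 genes had higher fitted levels in fasted than in fed fat and none passed the test (adjusted p = 0.289 to 0.791). Of all genes, 0.187% were called higher and 1.03% lower. The median log2 fold change, HFD fasted over HFD fed, was 0.87 for the 7 genes and 0.06 for all genes. Cd22 had 1.01 ± 0.43 (SE; 95% interval 0.09 to 1.92; unadjusted p = 0.033, adjusted p = 0.289 by edgeR), Pax5 1.11 ± 0.73, Cd79a 0.98 ± 0.57, Ms4a1 0.87 ± 0.74, Cr2 0.84 ± 0.49, Cd79b 0.39 ± 0.41 and Blk 0.27 ± 0.47. The median rested on few libraries. Without HFD fasted 28 it was 1.16, and without HFD fasted 24 alone, or without all 5 libraries rich in tract genes, it was 0.45. Without those 5 and a further 3 rich in tract genes or the epithelial cadherin Cdh16 it was 0.17, over 6 genes that still passed the filter. By voom, a limma fit that weights each library by its quality, the median was 0.41 and Cd22 had 0.22. In these alternatives too no gene of the 7 was called.

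The response to fasting was compared between the diets with an interaction term, as the Ensure response minus the HFD response. All 7 values were below 0 (median -0.64, against 0.04 over all genes), from -0.26 for Blk to -1.43 for Ms4a1. None of the 7 was called (edgeR adjusted p = 0.791 to 0.951), and the share called over all genes was 0% higher and 0% lower, while 1234 of the 16015 genes had an unadjusted p under 0.05. DESeq2 called 23 genes higher and 42 lower and voom 876 and 294, none of them among the 7. By voom 3 of the 7 were above 0 and their median was -0.1, so their common direction depends on the tool. The edgeR median was -0.4 without HFD fasted 24, -1 without HFD fasted 28, -1.1 without HFD fed 27 and -0.97 without Ensure fasted 17. A different response of these genes to fasting was not detectable with these libraries.

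Between the diets among fed libraries, Cd22 and Blk stood apart from the rest in size. The log2 fold change, Ensure fed over HFD fed, was -1.32 ± 0.39 for Cd22 (SE; 95% interval -2.14 to -0.49; edgeR adjusted p = 0.065) and -1.2 ± 0.42 for Blk (95% interval -2.09 to -0.3; edgeR adjusted p = 0.124). Neither passed. The other genes had -0.25 ± 0.37 (Cd79b), -0.2 ± 0.67 (Ms4a1), -0.13 ± 0.52 (Cd79a), -0.11 ± 0.68 (Pax5) and 0 ± 0.44 (Cr2). None of the 7 was called, against 2.09% of all genes higher and 2.17% lower. Other tools did call Cd22: DESeq2 gave -1.29 (adjusted p = 0.0184) and voom -1.4 (adjusted p = 0.00128). Ensure fed 18 was sequenced in lane 7, per the labels, with all HFD libraries. Its Cd22, 3.03 CPM, and its Blk, 0.745 CPM, were below those of each HFD library.

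Among fasted libraries all 7 genes were lower with Ensure in fitted level, and Cd22 passed the test. Its log2 fold change, Ensure fasted over HFD fasted, was -1.8 ± 0.41 (SE; 95% interval -2.67 to -0.93; edgeR adjusted p = 0.0269), a level 0.286 times that in HFD fasted fat. That is 1 of 7 genes called lower, against 1.19% of all genes lower and 1.63% higher. Ms4a1 had -1.63 ± 0.7 (adjusted p = 0.205), Blk -1.46 ± 0.45 (adjusted p = 0.0843) and Pax5 -1.17 ± 0.69 by the same test. Cd79a had -1.02 ± 0.54, Cr2 -0.64 ± 0.46 and Cd79b -0.62 ± 0.38. The median of the 7 was -1.17, against 0.02 over all genes, and it was -0.61 without HFD fasted 24.

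The Cd22 call did not hold in each alternative. It was lost when lane entered the fit (log2 fold change -2.08, adjusted p = 1) and with only the compared groups fitted (-1.8, 0.275), at a size no smaller than before. It was also lost without HFD fasted 23 (log2 fold change -1.63, adjusted p = 0.0751), HFD fasted 28 (-1.6, 0.0774), Ensure fasted 7 (-1.69, 0.0636) or Ensure fasted 17 (-1.77, 0.0613), and without the 5 tract-rich libraries (-1.61, 0.0802). Without Ensure fasted 8, the highest Cd22 library of its group, it was -2.31 (adjusted p = 0.00499). No Ensure fasted library shared a lane with an HFD fasted one, so lane and diet cannot be told apart among fasted libraries. Both diet comparisons and both fasting comparisons share groups, so their values are not separate results.

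**Figure D2:**
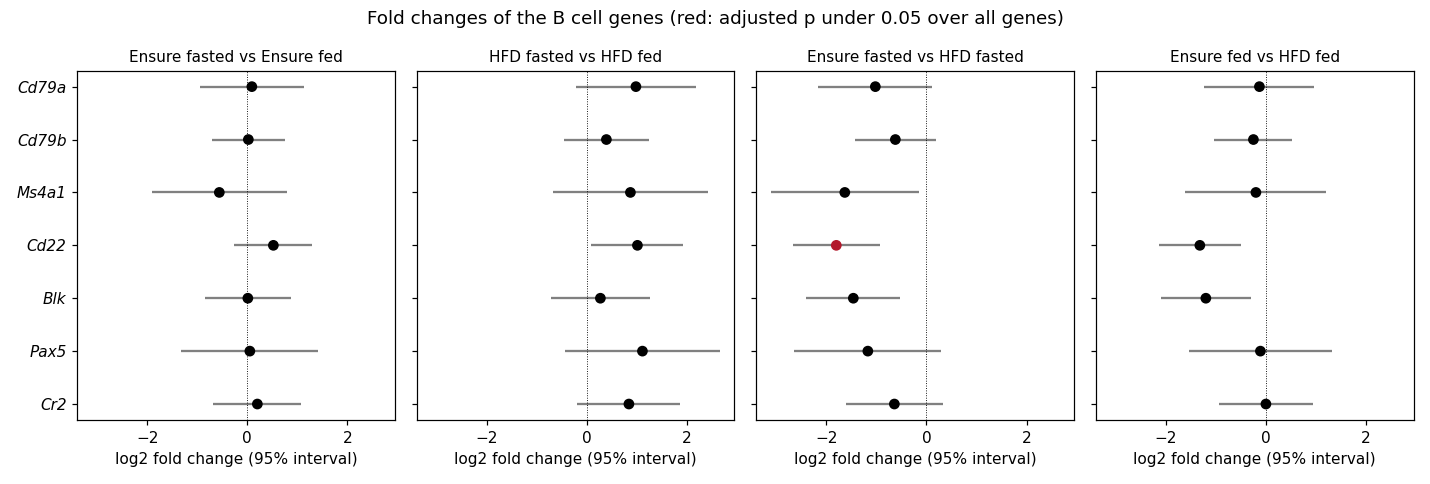
Log2 fold change of each B cell gene (x axes, points) with its 95% interval (lines) in 4 comparisons, the first-named group over the second. The point in red is the only one with an adjusted p under 0.05: Cd22 in Ensure fasted against HFD fasted fat, at -1.8.

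What the genes share was measured as their correlation over the 19 libraries, on log2(CPM + 0.1), in 21 pairs. Splitting the pairs by Cd22 was chosen after the values were seen. In the 15 pairs without Cd22, Pearson's r was 0.34 to 0.9 (median 0.66) and Spearman's rho 0.14 to 0.9. Of these pairs 11 passed by r and 11 by rho, each by permutation test adjusted over the 21 pairs. Cd79a and Ms4a1 had r = 0.9 and rho = 0.87, and Cd79a and Cd79b had r = 0.86 and rho = 0.85 (permutation p = 1e-05 for each, the smallest that 100000 permutations can give; adjusted p = 7e-05). Without the 2 libraries farthest from the median of Cd79a these were 0.85 and 0.78. For Pax5 and Cr2, in contrast, r was 0.34 with all libraries and -0.03 without the farthest.

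The relation among the 6 genes was also present within diets and within lane 7. Median r over the 15 pairs was 0.54 in the 11 Ensure libraries (-0.3 to 0.86), 0.81 in the 8 HFD libraries (0.37 to 0.93) and 0.79 in the 9 libraries of lane 7 (0.46 to 0.94). Lanes 5 and 6 held 5 libraries each, too few for a value. After group means were subtracted it was 0.59 (0.22 to 0.92). Without the 5 tract-rich libraries 7 of all 21 pairs passed by r.

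In the 6 pairs with Cd22, r was 0.16 to 0.46 (median 0.22), and none passed by r. By rho 1 passed, Cd22 with Blk (r = 0.46, adjusted permutation p = 0.0751; rho = 0.55, adjusted permutation p = 0.0285; r = 0.39 without the 2 farthest). After group means were subtracted, r with Cd22 was -0.44 to 0.17. Whether the 6 pairs with Cd22 differ from the other 15 was not tested.

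**Figure D3:**
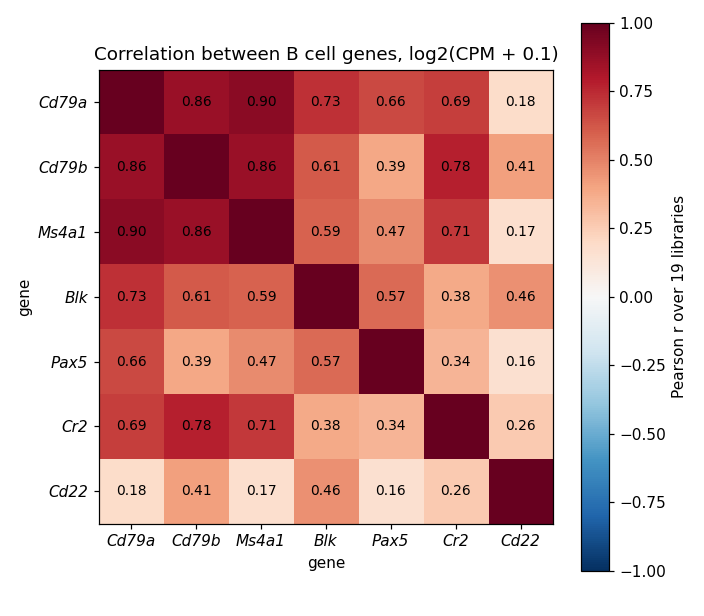
Pearson's r between the B cell genes over the 19 libraries (color and number; both axes list the genes, Cd22 last). The 15 pairs without Cd22 run from 0.34 to 0.9 and the 6 with it from 0.16 to 0.46.

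The counts show the split directly. HFD fasted 28 held 484 counts of Cd22 and 16 of Cd79a, a ratio of 30.2. Ensure fasted 8 held 177 and 12, a ratio of 14.8. In the other 17 libraries the ratio was 1 to 7.76. Cd22 made up 80.5% of the counts of the 7 genes in HFD fasted 28 and 67% in Ensure fasted 8, and 20 to 53.5% in the others. The summed markers of macrophages and dendritic cells were also highest in these libraries. Macrophage genes led that sum, with Lyz2 at a mean of 1310 CPM over the 19 libraries. The dendritic cell genes Flt3, Zbtb46, Siglech, Xcr1 and Clec9a averaged 1.42 to 16.7 CPM each, so the sum says little of dendritic cells. The 15 detected markers of those cells reached their highest sums of the 19 libraries there, 4880 CPM in Ensure fasted 8 and, highest of all, 6900 CPM in HFD fasted 28. By group the sum was 1010 to 4880 CPM in Ensure fasted, 1730 to 3230 in Ensure fed, 1510 to 6900 in HFD fasted and 1920 to 3470 CPM in HFD fed fat, and no marker was at 0 in all libraries.

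Cd22 was therefore set against that sum, in a family of 28 relations of the 7 genes with 4 marker sums chosen after the values were seen. For Cd22 r was 0.67 (permutation p = 0.00142, adjusted p = 0.0398) and rho 0.58 (permutation p = 0.0105, adjusted p = 0.294), so the sum passed by r and not by rho. HFD fasted 28 and Ensure fasted 8 prompted this comparison and enter it, so its p is no independent support. Without both, r was 0.52 and rho 0.45 over 17 libraries, and without HFD fasted 28 and Ensure fasted 5, the farthest libraries, r was 0.55. For the other 6 genes r was -0.3 to -0.04 and none passed. No relation with the sums of T cell, pan-leukocyte or tract markers passed. The part of macrophage RNA in the Cd22 result was not tested.

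Cd22 and Cd79a were then set against each of the 15 markers, in 30 relations. These too were chosen after the values were seen and include HFD fasted 28 and Ensure fasted 8, so their p-values are no independent support. For Cd22, 12 values of r were above 0 and 6 passed by r, of which Cd163, a marker of resident macrophages, was below 0 (r = -0.6, rho = -0.46, adjusted permutation p = 0.0292 and 0.136). By rho 3 passed: Cd68, a lysosomal protein of macrophages (r = 0.89, rho = 0.84, adjusted permutation p = 0.0001 and 0.0009), Trem2, a lipid-sensing receptor of macrophages (r = 0.89, rho = 0.75, adjusted permutation p = 0.0001 and 0.0054), and Itgax, the integrin chain CD11c (r = 0.87, rho = 0.66, adjusted permutation p = 0.0001 and 0.0256). Without the 2 farthest libraries, HFD fasted 28 and 23, r was 0.81, 0.82 and 0.76. Without HFD fasted 28 and Ensure fasted 8 it was 0.85, 0.85 and 0.84 over 17 libraries (rho 0.78, 0.68 and 0.59). Cd79a had r = -0.17 with Cd68, -0.12 with Trem2 and -0.04 with Itgax (adjusted permutation p = 0.709, 0.781 and 0.95). The only marker that passed with Cd79a by r was Zbtb46, a dendritic cell factor (r = 0.58, adjusted permutation p = 0.0373; rho = 0.49, adjusted permutation p = 0.128), and r was 0.34 without HFD fasted 24 and 28.

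Mean Cd22 was lower with Ensure than with HFD among fed and among fasted libraries. Its relation with Cd68 was therefore also taken within each diet, with p-values adjusted over 6 such relations. In the 11 Ensure libraries r was 0.73 (permutation p = 0.036, adjusted p = 0.0432) and rho 0.44 (adjusted p = 0.219). It rests on Ensure fasted 8, without which r was 0.15. In the 8 HFD libraries r was 0.82 (exact permutation p = 0.0177, adjusted p = 0.0432) and rho 0.69 (exact permutation p = 0.0694, adjusted p = 0.172), and without HFD fasted 28 r was 0.77. Trem2, set against Cd22 in the same way, had r = 0.71 in the Ensure libraries (adjusted permutation p = 0.0543) and rho = 0.16. Without Ensure fasted 8 its r there was -0.09. In the HFD libraries Trem2 had r = 0.77 (adjusted exact permutation p = 0.0432) and rho = 0.62, and r = 0.66 without HFD fasted 28. Itgax had r = 0.5 with Cd22 in the Ensure libraries and 0.74 in the HFD libraries, and these were not tested. Mean Cd68 was 131 ± 112 CPM with Ensure and 561 ± 602 CPM with HFD among fasted libraries, and 83.4 ± 15.2 CPM with Ensure and 238 ± 79.4 CPM with HFD among fed ones (SD). Itgax was lower with Ensure both among fasted (log2 fold change -3.15 ± 0.58, edgeR adjusted p = 0.00864) and among fed libraries (-2.56 ± 0.53, adjusted p = 0.0123).

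**Figure D4:**
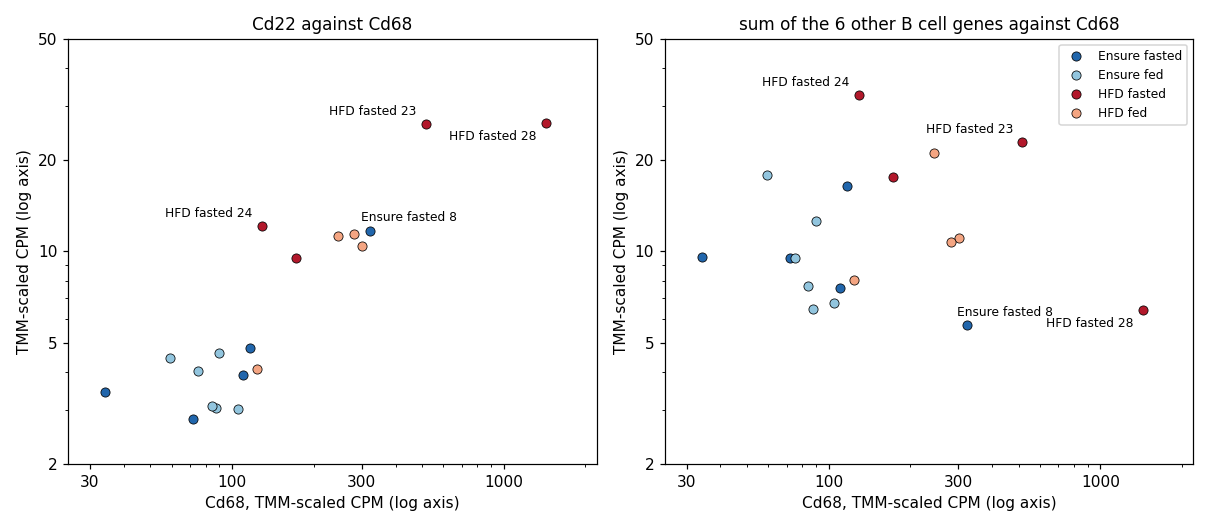
Cd22 (left) and the summed other 6 B cell genes (right) against the macrophage gene Cd68, in TMM-scaled CPM on log axes, 1 point per library. HFD fasted 28 and Ensure fasted 8 are high in Cd22 (26.5 and 11.7 CPM) and low in the other genes (6.41 and 5.73 CPM).

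Genes whose pattern was most like the 7 were ranked by Pearson's r over the 19 libraries after group means were subtracted, as a description. Among the 10 most alike were Pou2af1 (0.81), Ltb (0.8), Spib (0.8), Tnfrsf13c (0.8), Zfp831 (0.8), H2-Ob (0.79), Faim3 (0.78), Siglecg (0.77) and Ikzf3 (0.75). For the 6 genes without Cd22 the list included Tnfrsf13c (0.87), Faim3 (0.87), Spib (0.84) and Ltb (0.84), and also Zfp831 (0.83), Mmp9 (0.82), Cacna1i (0.8), Nkain4 (0.8) and Iqsec3 (0.79). For Cd22 alone it held none of these. It ran Wdr41 (0.89), Snx12 (0.88), Atp6v1a (0.87), Naa50, Atad2, Tlr1, Hpgds, Cnr2, St18 and Gla (0.86 each).

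Of 21 tested genes of the B cell surface other than the 7, none was called for fasting with either diet. Among fasted libraries 3 were lower with Ensure and none was higher: Fcrl1, an Fc receptor-like protein (log2 fold change -1.32 ± 0.35), Siglecg, an inhibitory sialic acid receptor like CD22 (-1.26 ± 0.32), and Gpr183, the oxysterol receptor that guides B cells (-1.14 ± 0.25), with edgeR adjusted p = 0.0496, 0.0398 and 0.0215. The list's median was -0.72, and of all genes 1.19% were called lower there. Of 29 alternatives, 22 lost the Fcrl1 call, 18 the Siglecg call and 6 the Gpr183 call. Among fed libraries 2 were higher with Ensure and none was lower: the inhibitory Fc receptor Fcgr2b (0.76 ± 0.18, edgeR adjusted p = 0.0234) and the ectoenzyme Cd38 (0.77 ± 0.2, adjusted p = 0.0398), with a median of -0.28 for the list. Of all genes 2.09% were called higher in that comparison. Of 29 alternatives, 5 lost the Fcgr2b call and 10 the Cd38 call. Fcgr2b and Cd38 are not limited to B cells. The highest members of the list by mean over 19 libraries were Cd81 (367 CPM), Fcgr2b (69.5), Cd38 (42.4) and Cd24a (40 CPM), all made by many cell types.

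The signalling genes downstream of the receptor had lower fitted levels with Ensure. Of 15 tested, all had a log2 fold change below 0 between the diets, both among fasted (median -0.64) and among fed libraries (median -0.54). Over all genes, 52.3% were above 0 among fasted (median 0.02) and 44.3% among fed libraries (median -0.04). Whether the list differs from all genes was not tested. None passed among fasted libraries. Among fed libraries the adaptor Blnk passed (-1.57 ± 0.42, edgeR adjusted p = 0.0411), with 12.6 ± 2.07 CPM in Ensure fed and 37.2 ± 14.2 CPM in HFD fed fat (SD). Of all genes 2.17% were called lower in that comparison. The Blnk call was lost in 13 of 29 alternatives, also when lane entered the fit (log2 fold change -1.33). The level of Blnk is several times those of the receptor chains. The list's highest members were Syk (119 CPM), Grb2 (82.2), Lyn (76.6) and Prkcb (49 CPM), which myeloid cells make too.

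Of 13 B lineage transcription factors 1 was called in any comparison, for fasting with Ensure, where 10.6% of all genes were called higher. Bach2, a repressor that B and T cells share, rose after fasting with Ensure to 7.75 ± 0.753 CPM, against 5.37 ± 0.751 CPM in Ensure fed fat (log2 fold change 0.53 ± 0.14, edgeR adjusted p = 0.0151). The call was lost without the 5 tract-rich libraries, at a similar size (0.46, adjusted p = 0.128). Bach2 averaged 8.78 ± 1.54 CPM in HFD fasted and 6.34 ± 0.973 CPM in HFD fed fat. The highest factors by mean were Ebf1 (142 CPM) and Foxo1 (131 CPM), both also made by adipocytes, then Irf8 (54) and Spi1 (52.2 CPM), both also made by myeloid cells.

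Among 8 tested plasma cell genes, 1 passed, in 2 comparisons. Of all genes 10.6% were called higher for fasting with Ensure, and 2.17% lower in Ensure fed than in HFD fed fat. Sdc1, a proteoglycan of plasma cells and epithelia, rose after fasting with Ensure (0.77 ± 0.25, edgeR adjusted p = 0.0404) and was lower in Ensure fed than in HFD fed fat (-0.99 ± 0.26, adjusted p = 0.0429). Of 29 alternatives, 11 lost the fasting call and 13 the call between fed groups. Without Ensure fasted 8 the fasting value was 0.52 (edgeR adjusted p = 0.118). Jchain, the chain that joins secreted IgA and IgM, had higher means with Ensure. Among fasted libraries they were 133 ± 67.4 CPM with Ensure and 58.3 ± 41.6 CPM with HFD, and among fed ones 153 ± 92.7 CPM with Ensure and 36.6 ± 13.8 CPM with HFD (SD). Between fed libraries its log2 fold change was 2.06 ± 0.59, which did not pass (edgeR adjusted p = 0.056). Xbp1 (189 CPM), Jchain (103), Sdc1 (44.6) and Prdm1 (8.45 CPM) had the highest means of the list. The list held 22 symbols, immunoglobulin heavy and light chain genes included, of which 11 were found in the count tables and 8 passed the filter. No value of a heavy or light chain gene is given here.

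Cxcl13, the chemokine that draws B cells into follicles through Cxcr5, was higher in Ensure fed than in HFD fed fat. It was at 85.6, 203, 49.2, 19.4, 102 and 9.69 CPM in Ensure fed 1, 9, 10, 12, 16 and 18, against 3.4, 2.15, 2.03 and 3.77 CPM in HFD fed fat. The groups did not overlap, and the lane 7 library, Ensure fed 18, was the lowest of its group. The log2 fold change was 4.77 ± 0.9 (SE; edgeR adjusted p = 0.00665). The call was lost with voom (3.51, adjusted p = 0.0523) and when sequencing lane entered the fit (1.76, adjusted p = 1). Among fasted libraries Cxcl13 was at 90.5, 28, 32.9, 23.3 and 82.2 CPM with Ensure, against 10, 16.3, 4.23 and 1.15 CPM with HFD (log2 fold change 2.69 ± 0.81, adjusted p = 0.0785). None of the 7 B cell genes was called higher with Ensure in either comparison.

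**Figure D5:**
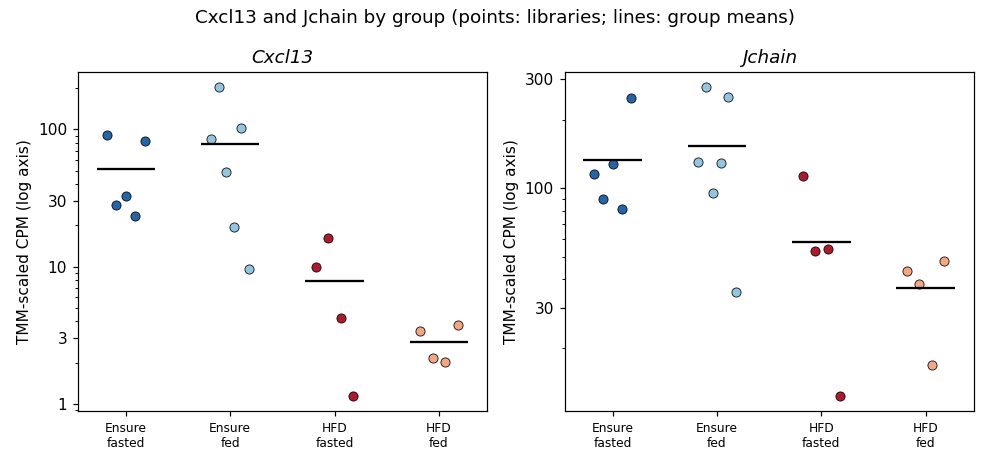
TMM-scaled CPM (log axes) of Cxcl13 and Jchain by group, with points for libraries and lines for group means. Cxcl13 is at 9.69 CPM or more in each Ensure library and at 16.3 CPM or less in each HFD library, while Jchain overlaps between the diets both among fasted and among fed libraries.

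Of 10 tested genes of lymphoid stroma, Cxcl13 included, 4 more passed for fasting with Ensure, 2 in each direction. Over all genes 10.6% were called higher and 9.77% lower there. Whether the list differs from all genes was not tested, and 10 genes are few for it. The lymphotoxin receptor Ltbr (-0.49 ± 0.11) and the lymphocyte survival factor Il7 (-0.92 ± 0.21) fell, and Fcamr (1.56 ± 0.45) and Clu (1.06 ± 0.35), which follicular dendritic cells make, rose (edgeR adjusted p = 0.0056, 0.00597, 0.0236 and 0.0414). Clu rested on Ensure fasted 5, without which it was 0.57 (adjusted p = 0.219), and it was 0.22 (adjusted p = 0.642) without the 5 tract-rich libraries. Ccr7, the homing receptor of lymphocytes and dendritic cells, was lower in Ensure fasted than in HFD fasted fat (-1.67 ± 0.33, adjusted p = 0.0132). Of 14 tested genes of innate-like B cells 3 were lower with Ensure and none was higher: Bhlhe41 (-1.48 ± 0.31) and Cd9 (-1.8 ± 0.4) among fasted and Myof (-0.94 ± 0.26) among fed libraries (edgeR adjusted p = 0.0187, 0.0242 and 0.0445). Without HFD fasted 28, Cd9 was -0.84 (adjusted p = 0.0562) and Bhlhe41 also -0.84 (adjusted p = 0.0321), so that library set much of both values. Their levels, like those of Cd1d1 (423 CPM), Myof (151), Cd9 (107) and S1pr3 (33.3 CPM) at the head of the list, far exceed those of the 7 genes, and other cells make them.

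Markers of other cells moved with the diets too. T cell markers summed to 63.5 to 113 CPM in Ensure fasted, 69.1 to 103 in Ensure fed, 70.8 to 124 in HFD fasted and 60.6 to 75.5 CPM in HFD fed fat. Of 18 tested, Cd4 was higher in Ensure fed (2.4 ± 0.44) and Lat lower in Ensure fasted fat (-1.88 ± 0.43). Cd4 ran against its list, since 15 of the 18 were below 0 among fed libraries (median -0.34), and it was 1.04 with lane in the fit. Of 9 tested neutrophil markers 4 were higher in Ensure fasted (S100a9, Retnlg, Cxcr2 and Ngp) and 2 in Ensure fed fat (S100a9 and Cxcr2). Their sum was 273 and 335 CPM in the tract-rich Ensure fasted 2 and 5. It was 40.2 to 46 CPM in Ensure fasted 7, 8 and 17, against 10.3 to 58 CPM in HFD fasted fat. Without Ensure fasted 2 the fasted value of S100a9 went from 4.98 to 3.28 and that of Retnlg from 4.62 to 2.4, both still called. Trem2 was lower in Ensure fed fat (-3.07 ± 0.79), and the red cell gene Slc4a1 higher in Ensure fasted fat (2.54 ± 0.62). For fasting with Ensure, the mesothelial gene Wt1 (0.76 ± 0.17), 1 of 9 tested, rose, and the adipocyte genes Lep (-1.34 ± 0.32) and Slc2a4 (-0.6 ± 0.18), 2 of 12, fell. The leukocyte gene Cd52, 1 of 7, was also called higher there (3.08 ± 0.98) but rested on Ensure fasted 5, without which it was 0.16 (adjusted p = 0.884). These counts are to be read against the 10.6% of all genes called higher and 9.77% called lower for fasting with Ensure. Between the diets these shares were 2.09% higher and 2.17% lower with Ensure among fed libraries, and 1.63% and 1.19% among fasted ones. None of the 10 tested natural killer cell markers or of the 16 tested tract markers was called. Adjusted p-values of these genes, by edgeR, were under the 0.05 threshold. Of the 35 calls in lists outside the 7 genes, 21 were lost without at least 1 library, and all 25 between the diets were lost when lane entered the fit, many at a similar size (Itgax -2.83 and Lat -2.63 among fasted libraries, each with adjusted p = 1). Of the 10 for fasting, 9 were lost when lane entered the fit, 8 without the 5 tract-rich libraries and 9 without the 8 rich in tract genes or Cdh16. The 14 not lost without any single library were Bach2, Bhlhe41, Ltbr, Il7, Cxcl13, Ccr7, Cd4, S100a9 and Ngp among fasted libraries, Itgax in both diet comparisons, Lep, Slc2a4 and Wt1.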

How the data were processed

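The authors deposited whole-number read counts per gene, not normalized, for 19 libraries. RNeasy extraction, poly-A selection, TruSeq preparation and HiSeq2000 sequencing are given in the labels' protocols. The tools bcl2fastq 1.8.4, TopHat2 2.1 and HTSeq 0.6.1 and the build mm9 come from the submitters' processing notes. The counting strand is not given in the sources used here, and Gm29439, which overlaps an exon of Cd22 by 264 bases on the plus strand in GENCODE M21, could share reads with Cd22.

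Counts per gene were fitted with edgeR 4.0.16 (R 4.3.3): 1 quasi-likelihood fit of 19 libraries in 4 groups, TMM scaling, filterByExpr at a minimum count of 10, and calls at a Benjamini-Hochberg adjusted p under 0.05 over all 16015 genes. HTSeq's summary lines were left out of library sizes; reads outside genes were 13.01 to 17.32% of a library. The test was checked on simulated data. Separate animals are not stated in the labels; the p-values rest on variation between libraries, which may be technical. In 37 comparisons of same-group libraries the chi-square per gene was 7.04 to 288 (genes with 20 counts or more), so none was counted as a repeat. Correlations used scipy 1.17.1 with 100000 permutations, or exact ones under 10 libraries.

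The 7 genes and all lists were chosen with earlier results of these data known. Named are all 7 genes, list members called in a comparison (up to 4 a list and comparison), the 4 highest of each B cell list and genes among the 10 most like the 7; some genes that this rule names are not reported here. Jchain, Cd68 and the markers set against Cd22 were added after their values were seen. Alternatives were library-size and RLE scaling, no filter, a minimum count of 30, DESeq2 1.42.0, limma 3.58.1 voom, lane as a term, only the compared groups, leaving out library sets and each library in turn, and a pseudocount of 1 CPM in place of 0.1.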

Additional observations from a re-analysis of the deposited data

Results flagged for a closer look

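Within groups, 28 sets of values of the 7 genes were searched for a library far from the others, by the gap to its neighbour over the group's range. Chance marks about 1 in 20 such sets, and 6 were marked. Cd22 in Ensure fasted 8 was at 11.7 CPM, against 2.8 to 4.82 CPM in the other Ensure fasted libraries. Cd22 in HFD fed 22 was at 4.1 CPM, below 10.4 to 11.4 CPM in the other HFD fed libraries. Both are libraries through which the diets overlap. Cd79a in HFD fed 27 was at 3.86 CPM, and Cd79b in Ensure fasted 17 at 5.78 CPM, each the highest of its group. Pax5 in HFD fasted 24 was at 1.56 CPM and Pax5 in Ensure fasted 2 at 0.91 CPM, and both libraries were rich in tract genes.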

How the results depend on the processing

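No paired analysis was possible because the groups share no replicate numbers. The number of the 7 genes called for fasting, with either diet, and in the difference of responses was 0 in each alternative run. In Ensure fed against HFD fed fat, where 0 were called, library size alone and DESeq2 called 1, and voom and the fit of only these groups called 2, Cd22 and Blk (log2 fold change -1.3 and -1.19 with only these groups); leaving out a library gave 0 to 1. In Ensure fasted against HFD fasted fat, where 1 was called, DESeq2 and voom called 2, while lane as a term, the fit of only these groups and leaving out the 5 tract-rich libraries called 0, and leaving out a library gave 0 to 1. For Cd22 in that comparison the log2 fold change was -2.31 to -1.14 over 29 alternatives (adjusted p = 0.000785 to 1). Of the 21 pairs of genes, 11 passed in the correlation test, and 7 without the 5 tract-rich libraries. Cd52 reversed for fasting with Ensure under voom, at -0.03 (3.08 by edgeR). The causes were not tested. Pairs passing were 14 with a pseudocount of 1 CPM. Over all genes, calls moved by more than 1.5 times: with voom 1172 higher and 1802 lower for HFD fasting against 30 and 165 by edgeR, and with lane as a term 0 of either sign between fasted diets against 261 and 191. Without HFD fed 25, HFD fasting called 0 higher and 23 lower. Counts of 1 to 36 limit Pax5 most.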
